A study of Mus musculus with 9 samples.

Results

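Transcripts of 30 genes that make, take up, move, store and sense cholesterol were examined in E10.5 mouse embryos, in the posterior second heart field (pSHF). This mesoderm lies dorsal and caudal to the heart tube and feeds cells into its inflow end, including the atrial septum. The 30 genes were chosen by symbol, with no rule on measured values but with earlier results of these data known. All 30 were found among 23277 named rows of the authors' deposited table. PolyA RNA was sequenced from 5 Shh KO and 4 Shh WT libraries of microdissected tissue, all of mixed strain background and the same stage. Shh encodes Sonic hedgehog, a secreted signal. The labels state neither which part of Shh was removed nor whether each library came from its own embryo or litter. A p-value here rests on these libraries and on the authors' model of their variance. Their scatter may be technical in part, and whether it covers the spread between embryos is unknown. The study asks which transcripts of cardiac and neural progenitors respond to Hedgehog signalling.

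Cells make cholesterol from acetyl-CoA through mevalonate and squalene, and when sterol in the endoplasmic reticulum is low the escort protein Scap carries SREBP transcription factors to the Golgi, where they are cleaved and then switch on most genes of the route. Insig proteins hold Scap back when sterol is plentiful, and excess sterol also forms oxysterols that activate LXR receptors and raise the efflux pumps. Hedgehog signalling uses cholesterol at both ends, since the ligand carries a covalently bound cholesterol, and the transducer Smoothened is activated by sterol that the receptor Patched is thought to withhold. Inherited loss of DHCR7 causes Smith-Lemli-Opitz syndrome in humans, in which heart septation defects occur.

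None of the 28 tested genes was called different between Shh KO and Shh WT tissue. Of the 30 genes, 28 were tested by Cuffdiff, the authors' differential expression program (Idi1 and Lrp2 were not), and 0 were called higher and 0 lower at a q-value (the p-value adjusted over all tested rows) under 0.05. Of the 13048 named tested rows whose fold change is a number, 1.56% were called higher and 0.383% lower, so 0 calls among 28 genes lies near that background and is not by itself a result about cholesterol genes. At an unadjusted Cuffdiff p under 0.05 there were 0 genes higher and 1 lower, against 5.83% higher and 1.68% lower of all named tested rows. The lower one was Abca1, the pump that exports cholesterol to apolipoproteins. All fold changes below are log2 values, Shh KO over Shh WT, from the authors' deposited table, which holds 1 pooled comparison of the genotypes. Pooled expression levels (FPKM) were deposited for the 253 called genes, and none of the 30 is among them, so no level of these genes is given and no value per library was used.

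The fold changes of the cholesterol genes were small. Their median was 0.03, with 16 positive and 12 negative, and the median over all named tested rows was 0.02. Of the 28 genes, 16 lay within 0.1 of 0 (57.1%), against 37.0% of all named tested rows. By role these were 6 of 7 tested enzymes from acetyl-CoA to squalene, 7 of 9 from squalene to cholesterol and 3 of 5 control genes. They included 0 of 3 tested genes of uptake and lysosomal exit and 0 of 4 of efflux, transfer and storage. The median size of the fold change, with its sign dropped, was 0.082 for the cholesterol genes and 0.146 for all named tested rows. These are descriptions without a test, of genes chosen with earlier results of these data known. The precision of the 2 sets was similar, because the error implied by the deposited p-value (the size of the fold change divided by the normal quantile of p) had a median of 0.22 for the 28 genes and 0.24 for all named tested rows. From that error the 95% interval of the fold change lay between −1 and 1, which is 2-fold either way, for 27 of the 28 genes and within 1.5-fold either way for 16. The deposited test statistic implies errors over 2 times as large, with which 13 of the 28 intervals lie within 2-fold, 0 within 1.5-fold, and all 28 hold 0. The sources used here do not settle which error is right, so the intervals below, taken from p, are the narrower of the pair.

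**Figure D1:**
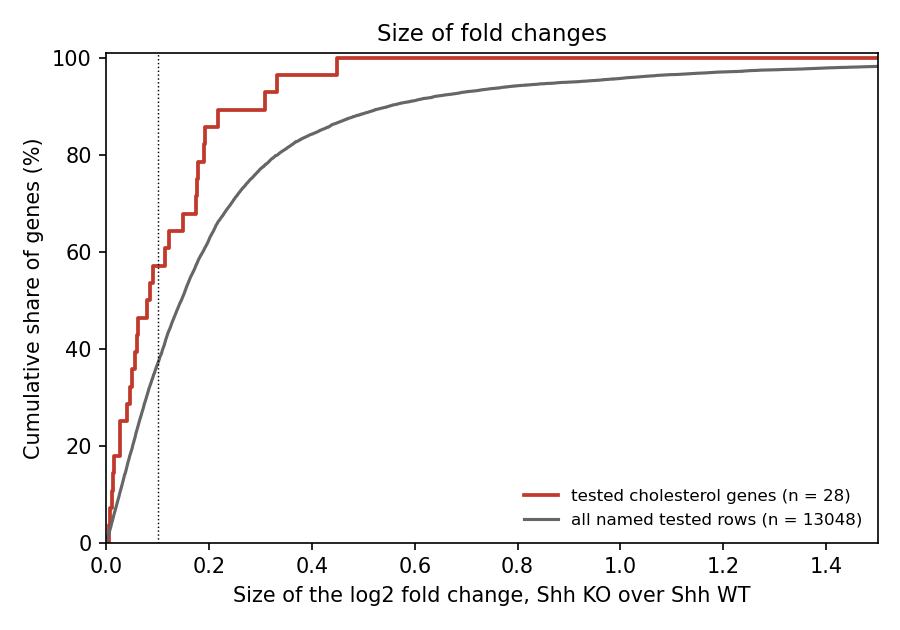
Cumulative share of genes (y axis, percent) against the size of their log2 fold change, Shh KO over Shh WT, in the authors' deposited table (x axis, sign dropped, drawn to 1.5), for the 28 tested cholesterol genes (red) and all 13048 named tested rows (grey). The dotted line marks 0.1, below which 57.1% of the cholesterol genes and 37.0% of all named tested rows lay, and the red curve reaches its top at 0.45 (Abca1).

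The promoters of 4 of these genes are shown as windows that hold, or lack, letters matching elements linked to control of the route by sterol. An element bound by LXR was not searched for. Each line gives the 250 bases before the RefSeq start, 5′ to 3′ on the gene's strand, of GRCm38.p6, with capitals for CCAAT, the box bound by NF-Y, and for CACNCCAC, the core of the sterol regulatory element bound by SREBP, either of them on either strand (so ATTGG is CCAAT read on the other strand). The windows are chr13:119690101-119690350 on the plus strand for Hmgcs1, chr5:4104698-4104947 on the minus strand for Cyp51, chr5:28071162-28071411 on the plus strand for Insig1 and chr4:53159896-53160145 on the minus strand for Abca1.
Hmgcs1: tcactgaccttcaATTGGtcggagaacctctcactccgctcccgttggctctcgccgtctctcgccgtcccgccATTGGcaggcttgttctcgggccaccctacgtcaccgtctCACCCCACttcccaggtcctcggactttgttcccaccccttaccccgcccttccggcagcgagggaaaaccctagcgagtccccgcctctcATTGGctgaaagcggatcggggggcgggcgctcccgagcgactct
Cyp51: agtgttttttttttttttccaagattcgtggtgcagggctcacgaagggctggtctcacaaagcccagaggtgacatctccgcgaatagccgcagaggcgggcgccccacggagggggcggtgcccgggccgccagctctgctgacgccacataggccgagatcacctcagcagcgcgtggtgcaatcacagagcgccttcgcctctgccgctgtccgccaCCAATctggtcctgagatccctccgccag
Insig1: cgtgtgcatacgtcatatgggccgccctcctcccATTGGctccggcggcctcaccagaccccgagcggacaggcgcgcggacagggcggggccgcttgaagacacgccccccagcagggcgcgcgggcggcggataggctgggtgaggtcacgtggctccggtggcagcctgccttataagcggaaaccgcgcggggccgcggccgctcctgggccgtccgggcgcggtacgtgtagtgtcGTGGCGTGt
Abca1: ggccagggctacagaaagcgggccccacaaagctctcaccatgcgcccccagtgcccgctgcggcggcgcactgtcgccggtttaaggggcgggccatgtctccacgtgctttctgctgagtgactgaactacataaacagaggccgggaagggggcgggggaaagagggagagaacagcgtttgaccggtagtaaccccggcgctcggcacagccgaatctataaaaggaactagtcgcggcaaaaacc

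The Hmgcs1 window held 3 CCAAT boxes, at 237, 176 and 45 bases before the start, and a match to the sterol element core at 136 bases. The Insig1 window held 1 of each, at 216 bases for CCAAT and 9 bases for the sterol element core. The Cyp51 window held 1 CCAAT box at 29 bases, and neither run of letters was in the Abca1 window. RefSeq promoter windows were matched for 23 of the 30 genes, 31 windows in all. CCAAT was present in 20 of these 31 windows (64.5%), against 33.8% of all 32851 windows. The core CACNCCAC was present in 4 of 31 (12.9%), against 5.29% of all windows, in Acat2, Hmgcs1, Insig1 and Lrp2. GGGCGG, the GC box bound by Sp1, was present in 24 of 31 (77.4%), against 32.7% of all windows. The Gli consensus GACCACCCA, bound by the transcription factors at the end of the Hedgehog pathway, was in 0 of 31 windows, against 0.225% of all windows. Some genes have more than 1 window. Counted by gene, CCAAT was in 19 of 23, against 37.5% of all 27025 genes. CACNCCAC was in 4 of 23, against 6.05%, and GGGCGG in 21 of 23, against 35.4%. The comparison was not limited to genes expressed in this tissue, so these shares do not show a trait particular to cholesterol genes. All motifs were read on both strands, none of the 4 contains another, and a match of letters is a description and not a shown binding site.

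The enzymes from acetyl-CoA to squalene had the narrowest range. Of 8 such genes 7 were tested, with 0 called, and their fold changes ran from −0.05 to 0.12 in the authors' deposited table. Hmgcs1, which makes HMG-CoA, stood at −0.05 (implied error 0.18, 95% interval −0.39 to 0.30) in the authors' deposited table, with a Cuffdiff p of 0.795. Mvk and Pmvk, the kinases that phosphorylate mevalonate in turn, stood at −0.02 and 0.12 in the authors' deposited table. Mvd, which turns the product into isopentenyl diphosphate, stood at 0.06 and Fdps, which builds farnesyl diphosphate, at 0.08 in the authors' deposited table. All 5 intervals held 0 and stayed within 2-fold, but with the errors from the statistic those of Pmvk and Fdps reached 1.04 and 1.10. Idi1, the isomerase between Mvd and Fdps, was listed at −0.08 with a p of 1 and a statistic of 0, so it was not tested. Neither end of the series was well measured. Acat2, the cytosolic thiolase of the first step, stood at 0.06 with an implied error of 0.49, and Fdft1, squalene synthase, at 0.06 with 0.47, in the authors' deposited table. Their intervals were −0.91 to 1.03 for Acat2, which passes 2-fold on the higher side, and −0.86 to 0.97 for Fdft1. Changes of about 2-fold in either direction could thus go undetected here. The statistic gives larger errors, 1.11 for Acat2 and 1.01 for Fdft1, and so wider intervals.

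Acat2 and Fdft1, the least precise of the tested genes, share their spans with other rows. Acat2 (chromosome 17, 12916310 to 12960725 of mm10) is listed with the same span as Tcp1, a chaperonin subunit gene, the small RNA Snora20 and the close copy Acat3. Tcp1 stood at −0.26 (Cuffdiff p = 0.192) in the authors' deposited table, and reads of Acat2 and Acat3 may not be told apart. Fdft1 (chromosome 14, 63122462 to 63177793) shares its span with Ctsb, the gene of the lysosomal protease cathepsin B, which stood at 0.36 (Cuffdiff p = 0.0630) in the authors' deposited table. Srebf1 shares its span with Rai1 and had the third largest implied error, 0.32. The 21 tested genes with a span of their own had implied errors between 0.18 and 0.27, with a median of 0.22. For the 7 that share a span or a row they ran from 0.18 to 0.49, with a median of 0.24. A shared span thus did not always go with a large error. What part the shared spans have in these errors was not tested.

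**Figure D2:**
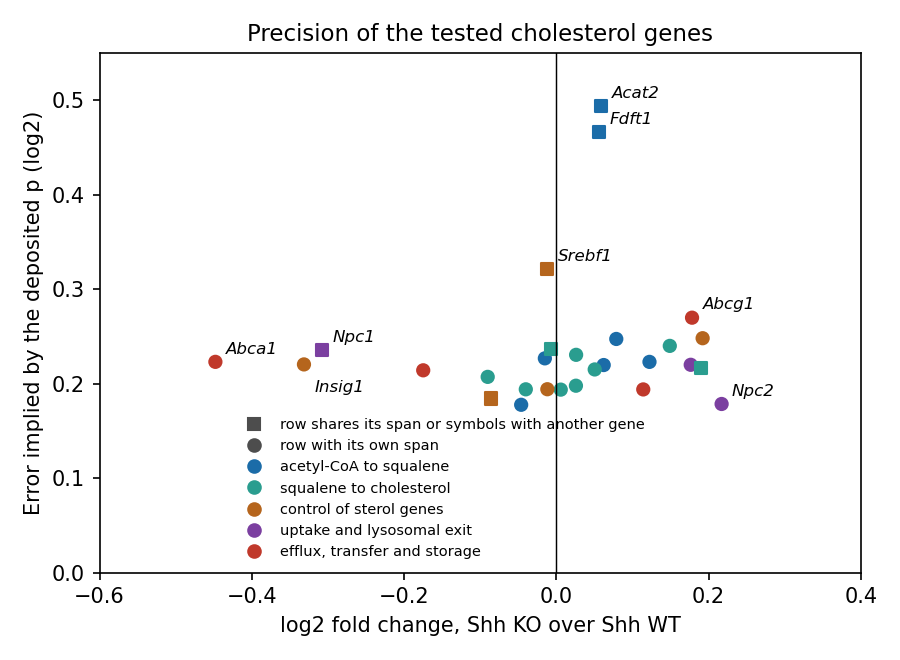
Error implied by the deposited p-value (y axis, log2 units) against the log2 fold change, Shh KO over Shh WT, in the authors' deposited table (x axis) for the 28 tested cholesterol genes, coloured by role, with squares for the 7 whose row or span is shared with another gene. Acat2 (0.49), Fdft1 (0.47) and Srebf1 (0.32) lie above the other 25 genes, and Abca1 lies farthest to the left at −0.45.

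The enzymes from squalene to cholesterol had similarly small values. All 9 were tested, 0 were called, and 7 of the 9 lay within 0.1 of 0. Sqle, squalene epoxidase and a main control point of the route, stood at 0.01 (implied error 0.19, 95% interval −0.37 to 0.39) in the authors' deposited table. Lss, which closes the sterol ring, stood at −0.01 and Cyp51, which removes the first methyl group from lanosterol, at −0.04 in the authors' deposited table. Hsd17b7 and Nsdhl, which act in the removal of the remaining methyl groups, stood at −0.09 and 0.05 in the authors' deposited table. Sc5d and Dhcr7, which set and then reduce the last double bonds, both stood at 0.03 in the authors' deposited table. For Dhcr7 the linear fold was 1.02, with a 95% interval of 0.778 to 1.33. The largest value among these 9 enzymes belonged to a row that is not that of a single gene. Tm7sf2, a sterol reductase, shares a row with Vps51, a gene of vesicle transport, and that row stood at 0.19 (implied error 0.22) in the authors' deposited table. Ebp, the sterol isomerase, was next at 0.15 (implied error 0.24) there.

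**Figure D3:**
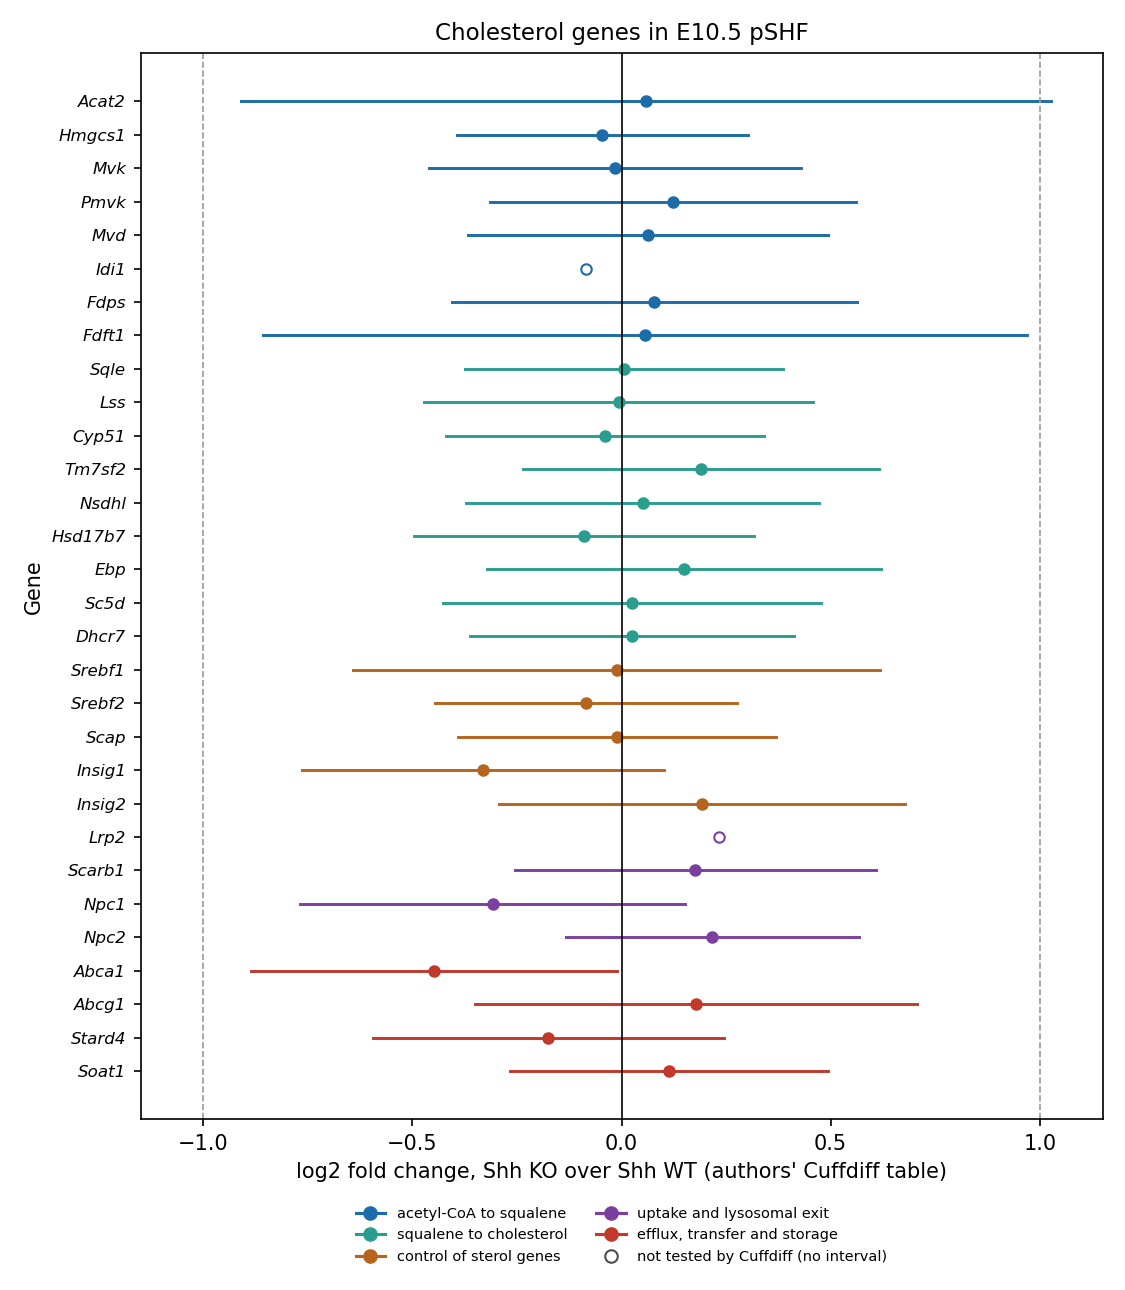
Log2 fold change, Shh KO over Shh WT, in the authors' deposited table (x axis) for the 30 cholesterol genes (y axis), with points for the fold change, lines for the 95% interval implied by the deposited p-value and open points for Idi1 and Lrp2, which were not tested. The dashed lines mark 2-fold either way; with these errors 27 of the 28 intervals lie between them, Acat2 reaches past 1 and the Abca1 interval does not hold 0, while with the wider errors from the statistic (not drawn) 15 pass 2-fold and all 28 hold 0.

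Genes that control the route were not called either, with values on both sides of 0. Srebf2, the SREBP gene that acts mainly on cholesterol genes, stood at −0.09 (95% interval −0.45 to 0.28) in the authors' deposited table. Srebf1, which acts mainly on fatty acid genes, and Scap both stood at −0.01 in the authors' deposited table, with implied errors of 0.32 for Srebf1 and 0.19 for Scap. The 2 Insig genes lay apart in sign. Insig1, itself a target of SREBP (chromosome 5, 28071412 to 28078662), stood at −0.33 (implied error 0.22, 95% interval −0.76 to 0.10) with a Cuffdiff p of 0.132 in the authors' deposited table. Insig2, which does not depend on SREBP in the same way, stood at 0.19 (95% interval −0.29 to 0.68) in that deposited table. Both intervals hold 0, they overlap, and the difference between the 2 genes was not tested.

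Genes of uptake and lysosomal exit were not called either, but their fold changes were larger. Of the 3 tested, 0 lay within 0.1 of 0. The median size of their fold changes was 0.217, against 0.146 for all named tested rows. Lrp2, megalin, is an endocytic receptor for lipoproteins that also binds Shh in the mouse forebrain, and it was listed at 0.23 without a test. Scarb1, the receptor for high-density lipoprotein, stood at 0.18 (implied error 0.22, Cuffdiff p = 0.422) in the authors' deposited table. Npc1 and Npc2 together carry cholesterol out of the lysosome, the first in its membrane and the second in its lumen. Npc1 stood at −0.31 (95% interval −0.77 to 0.15, Cuffdiff p = 0.190) and Npc2 at 0.22 (95% interval −0.13 to 0.57, Cuffdiff p = 0.224) in the authors' deposited table. They differed in sign, the intervals overlap, and neither was called. The Npc1 row overlaps that of 3110002H16Rik, which stood at −0.18 in the authors' deposited table.

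Among genes of efflux, transfer and storage, Abca1 had the lowest p of the 30. On chromosome 4 at 53030789 to 53159895, it stood at −0.45 in the authors' deposited table (implied error 0.22, 95% interval −0.89 to −0.01), a linear fold of 0.733. With the error from the statistic the interval is −1.39 to 0.49. Its Cuffdiff p was 0.0447 and its q 0.706, so it did not pass. Abcg1, a second efflux pump that LXR also raises, stood at 0.18 (95% interval −0.35 to 0.71, Cuffdiff p = 0.509) in the authors' deposited table. Stard4, which transfers sterol between membranes, stood at −0.17 and Soat1, which esterifies cholesterol for storage, at 0.11 in the authors' deposited table. These 4 genes thus split 2 and 2 by sign. Of them 0 lay within 0.1 of 0, and the median size of their fold changes was 0.177, against 0.146 for all named tested rows.

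Other genes of the same pathways, taken from 7 lists of genes outside the 30, gave 0 Cuffdiff calls among 75 tested, near the background of 1.56% higher and 0.383% lower. At an unadjusted p under 0.05 they held 3 genes higher (Acat1, Soat2 and Lcat) and 0 lower, against 5.83% higher and 1.68% lower of all named tested rows, so these counts are not a result about the lists. Of 3 further sterol synthesis genes 2 were matched and tested, with 0 called in either direction. Msmo1, a methyl oxidase that acts after Cyp51 and is listed under its older symbol, stood at 0.13 (95% interval −0.26 to 0.52) in the authors' deposited table. Acat1, the mitochondrial thiolase, had the lowest p of this list, at 0.44 in the authors' deposited table (Cuffdiff q = 0.616, unadjusted p = 0.0342). Of 14 tested genes that use farnesyl diphosphate for prenyl groups, dolichol and ubiquinone, 0 were called (median −0.07), and Ggps1, geranylgeranyl diphosphate synthase, had the lowest p at −0.30 (Cuffdiff p = 0.193) in the authors' deposited table. The 13 fatty acid genes driven by SREBP gave 0 calls and a median of −0.06, with 6 positive and 7 negative. Of that list Fasn, fatty acid synthase, stood at −0.26 and Scd1, stearoyl-CoA desaturase, at −0.16 in the authors' deposited table, while the lowest p was that of the malic enzyme gene Me1, at 0.49 (Cuffdiff p = 0.0712). Of 10 tested genes that cleave or stabilise SREBP and its partners 0 were called (median 0.11), and Erlin1 had the lowest p at 0.26 (Cuffdiff p = 0.248) in the authors' deposited table.

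Lipoprotein uptake genes gave 0 calls among 7 tested, with a median of 0.19. Vldlr, a lipoprotein receptor, had the lowest p of the list at 0.49 (Cuffdiff p = 0.0666, q = 0.837) in the authors' deposited table. Lrp1, a large endocytic receptor of the same family as Lrp2, stood at 0.03 (95% interval −0.31 to 0.38) in the authors' deposited table. Among 15 tested genes of sterol transfer inside the cell 0 were called (median 0.11), and Gramd1b had the lowest p at −0.63 (Cuffdiff p = 0.0561) in the authors' deposited table. The genes of efflux, LXR and bile acids gave 0 calls among 14 tested, with a median of 0.15. Soat2, which esterifies cholesterol as Soat1 does and is known from liver and gut, had the lowest p of the list and stood at 1.18 (implied error 0.37, Cuffdiff p = 0.0014, q = 0.0725) in the authors' deposited table. Lcat, a plasma enzyme made mainly in liver and named here after its value was seen, stood at 0.85 (Cuffdiff p = 0.0133, q = 0.356) in the authors' deposited table. The LXR genes themselves, Nr1h3 at 0.03 and Nr1h2 at 0.06, were close to 0 in the authors' deposited table.

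Of 12 tested genes in a list of Hedgehog genes, only some of which have a link to sterol, 4 were called lower and 1 higher. Of all named tested rows, 0.383% were called lower and 1.56% higher. One of the lower calls is Shh, the gene named in the genotype, so that call is not independent of the design. Shh, the ligand that carries cholesterol, had 5.44 FPKM in Shh KO and 15.7 FPKM in Shh WT in the authors' deposited table (Cuffdiff q = 0.00554). Ptch1, the sterol-sensing receptor, had 11.6 FPKM in Shh KO and 33.8 FPKM in Shh WT in the authors' deposited table at the same q. Gli1 and Hhip were the other genes called lower, and Gas1 the one called higher (0.60 in the authors' deposited table). Of the genes that prepare or release the ligand, the 4 tested were not called: Disp1 and Scube1 both stood at 0.04, Hhat, which adds palmitate to the ligand, at 0.16 and Scube3 at 0.20 in the authors' deposited table. Disp2 (0.32) and Scube2 (1.997) were listed there without a test. Smo, the transducer activated by sterol, was not called and in the authors' deposited table stood at −0.23, with a 95% interval of −0.59 to 0.12.

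**Figure D4:**
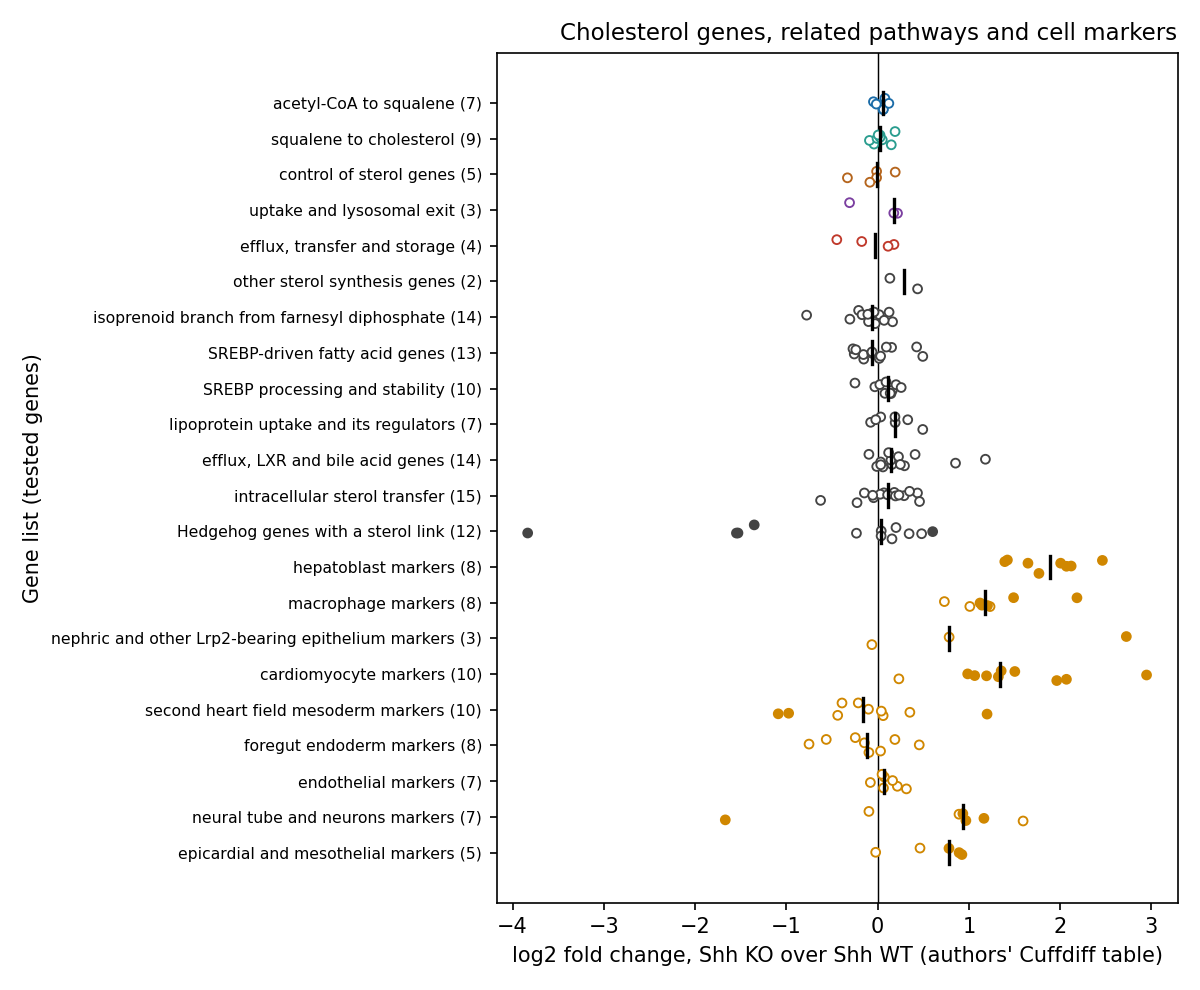
Log2 fold change, Shh KO over Shh WT, in the authors' deposited table (x axis) for the tested cholesterol genes by role (coloured, 5 upper rows), related pathway lists (grey) and cell type markers (orange); each point is a gene, filled where the Cuffdiff q was under 0.05, and black bars are medians. No cholesterol gene is filled, and 0 of 7 endothelial and 0 of 8 foregut endoderm markers are. Of hepatoblast markers 8 of 8 are filled and of cardiomyocyte markers 9 of 10, with the other marker lists in between. Among all named tested rows 1.56% were called higher and 0.383% lower.

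Markers of several cell types moved in the same dissections. For comparison, 1.56% of all named tested rows were called higher and 0.383% lower. At an unadjusted Cuffdiff p under 0.05 these shares were 5.83% and 1.68%. Hepatoblast markers were called higher in 8 of 8 tested (log2 fold changes 1.39 to 2.46), and Apoa1, the main protein of high-density lipoprotein, had 69.1 FPKM in Shh KO and 12.5 FPKM in Shh WT in the authors' deposited table. Macrophage markers were called higher in 5 of 8 tested (0.73 to 2.18), and cardiomyocyte markers in 9 of 10 (0.23 to 2.95). Epicardial and mesothelial markers gave 3 calls higher among 5 tested (−0.02 to 0.92), and markers of the neural tube and neurons 3 higher and 1 lower among 7 (−1.67 to 1.59). Endothelial and foregut endoderm markers gave 0 Cuffdiff calls among 7 and 8 tested, with 0 endothelial markers and 3 foregut ones (1 higher, 2 lower) at an unadjusted p under 0.05. Of epithelial genes that accompany Lrp2, such as Cubn and Pax8, 3 of 7 were tested and 1 was called higher, Lhx1, at 0.969 FPKM in Shh KO and 0.147 FPKM in Shh WT in the authors' deposited table. Markers of the labelled tissue, second heart field mesoderm, were all tested (10 of 10), with 1 called higher and 2 lower (−1.09 to 1.20), among them Osr1, which had 33.5 FPKM in Shh KO and 71.4 FPKM in Shh WT in the authors' deposited table. Liver makes sterol and macrophages carry Abca1 and Abcg1, and the part of these cells in the values of the 30 genes was not tested. In pooled tissue, fewer cells of a type and less RNA per cell cannot be told apart.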

How the data were processed

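PolyA RNA of 5 Shh KO and 4 Shh WT libraries was read as stranded single-end reads of 50 bp, per the labels' protocols. The reads were handled with TopHat2 2.0.10 and Cuffdiff 2.1.1 against mm9, per the submitters' processing notes, and the options are not given in the sources used here. Of 21107 symbols, 98.7% overlapped their RefSeq gene of GRCm38, so positions are given as mm10. The deposited starts were read as counting from 0.

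The authors deposited log2 fold changes, a test statistic (a score), p-values and q-values for 27198 rows. A shorter deposited table holds pooled FPKM, the linear ratio (fold) and its log2 value for 253 genes, which fix the direction as Shh KO over Shh WT. The statistic has the opposite sign in all 16918 rows where both are numeric. Depth per library is unknown. A row was taken as tested where p was under 1. Benjamini-Hochberg adjustment returned the deposited q-value of all 16944 tested rows to within 0.0001. Of them 13065 have a gene name and 13048 of these a numeric fold change, while 1190 rows of the full table hold a spreadsheet error in its place.

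The plan was to take errors from the statistic if it matched the p-value. It did not, since the normal quantile of p was 2.10 times the statistic in the median, so errors were taken from p. A simulation of this step drew its p-values from the same normal form. It checks only the calculation and cannot show whether that form holds for the deposited p-values. No test over libraries or over a list was made. Some genes of the related lists are not reported here and were left out of the lists' counts. The 30 genes, the related lists and the marker lists were chosen with earlier results of these data known. All 30 genes are named, with related genes that were called or had the lowest p of their list. Other related genes were also named outside that rule, such as Fasn, Scd1, Msmo1, Lrp1, Smo and the LXR genes. Python 3.11.15, pandas 2.3.3, SciPy 1.17.1, statsmodels 0.14.6 and matplotlib 3.10.9 were used.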

Additional observations from a re-analysis of the deposited data

How the results depend on the processing

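The count of called cholesterol genes was 0 in both directions under q thresholds of 0.01 and 0.10, adjustment over named rows, Benjamini-Yekutieli adjustment and without rows that share a span. With an unadjusted Cuffdiff p under 0.05, 1 gene was lower (Abca1). The median fold change of 0.03 ranged from 0.00067 (mean weighted by precision) to 0.026 across the 5 alternatives run. The count of 16 genes within 0.1 of 0 was 9 with a limit of 0.05, against 19.4% of all named tested rows, and 24 with a limit of 0.2, against 62.6%. It was 11 of 21 without shared spans and 16 after centring on the median of all rows (alternatives chosen after seeing the data). Centring turned Sqle to −0.019 and no other tested gene. Errors taken from the deposited statistic were 2.03 to 2.24 times those given. With them the intervals within 2-fold numbered 13 in place of 27, those within 1.5-fold 0 in place of 16, and that of Abca1 held 0; the calls come from the deposited q and do not use this error.

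No paired analysis was possible because the files used here hold no values per library. Leaving out each replicate in turn was not run for the same reason, nor was adding 1 FPKM, since none of these genes has a pooled FPKM value here.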
